A study of Mus musculus with 2 samples.

Results

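Hmgcs1, Sqle, Idi1, Fdps, Msmo1, Insig1 and Srebf2 are 7 of the 32285 genes in the feature table of a single-cell RNA experiment on brain tumours, and were chosen by symbol as genes of cholesterol synthesis and its control. Hmgcs1, Idi1, Fdps, Sqle and Msmo1 encode enzymes, and Insig1 and Srebf2 encode regulators. None of the 7 takes cholesterol up from outside the cell. Cells of the mouse glioma line CT-2A were implanted into the brains of Glut5 KO and wildtype mice, and the tumours were removed after 14 days. Glut5, encoded by Slc2a5, is a fructose transporter. Strain, age and the design of the Glut5 allele were not given in the sources used here, and the study text calls the altered mice knockdown where the sample labels say KO. CD45+ cells, which are blood-derived cells and microglia, were taken with magnetic beads, 16000 cells were loaded per genotype, and 1 droplet library per genotype was read from the 5′ end of transcripts. Genotype, host animal and library cannot be told apart with 1 library each, and no test between genotypes was possible. Every interval below is an exact 95% interval that covers counting error only.

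Cholesterol is built from acetyl units through the mevalonate pathway, in which Hmgcs1 makes a precursor of mevalonate. Idi1 and Fdps assemble the isoprenoid units into farnesyl diphosphate, which also feeds protein prenylation. Sqle oxidises squalene on the way to the first sterol, and Msmo1 removes methyl groups from later sterols. Srebf2 encodes SREBP2, the transcription factor that switches these genes on when membranes run short of sterol, and Insig1 encodes the membrane protein that holds SREBP2 back when sterol is plentiful. Insig1 and Srebf2 are themselves SREBP targets. In macrophages and microglia, cholesterol taken in with debris is handled in the opposite sense by the LXR receptors, which switch on export genes such as Abca1 and Abcg1.

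The deposited matrices held 12165 barcodes and 96851696 UMIs (molecules counted) in the Glut5 KO library, against 11495 barcodes and 116105873 UMIs in the wildtype library. At least 300 genes and under 10% mitochondrial UMIs left 12112 Glut5 KO and 11473 wildtype barcodes, and 188 barcodes occurred in both libraries. Slc2a5 had 1 UMI in the Glut5 KO library and 384 in the wildtype library, with 313 of the wildtype UMIs in microglia. Marker genes placed 8530 Glut5 KO and 8219 wildtype cells in 13 classes, of which 9 had at least 100 cells in each library. In these 9, a class's own markers were highest there for 7 of 8 microglia markers, 6 of 6 conventional dendritic cell type 1 (cDC1) markers, 3 of 6 type 2 (cDC2) markers, 7 of 7 migratory dendritic cell markers, 7 of 7 plasmacytoid dendritic cell (pDC) markers, 7 of 8 T cell markers and 7 of 7 NK cell markers. The monocyte/macrophage class led in 6 of its 16 markers, so its name rests on the gate. A further class was gated on 6 markers of cells that lack CD45, with the collagen gene Col3a1 at the head of its genes. Its CD45 gene Ptprc stood at 39.3 CPM (UMIs per 1000000 UMIs of the class) in Glut5 KO and 33.6 CPM in wildtype cells. Both libraries held cells with Xist and no Y-linked UMIs, called female here, and cells with the reverse, called male. There were 3473 female and 2646 male cells in the Glut5 KO library, against 2891 female and 3620 male cells in the wildtype library. Each sample title names 1 mouse, although each library held cells of both kinds, and how many animals gave cells cannot be told from the labels.

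The members are spread over the genome (GRCm38, GENCODE M21). Hmgcs1 lies on chromosome 13 at 119690379 to 119708260 and Idi1 on the same chromosome at 8885501 to 8892451, both on the plus strand. Sqle lies on chromosome 15 at 59315077 to 59331192 and Srebf2 at 82147181 to 82205379, both on the plus strand. Fdps lies on chromosome 3 at 89093588 to 89101959 and Msmo1 on chromosome 8 at 64718139 to 64733792, both on the minus strand. Insig1 lies on chromosome 5 at 28071363 to 28078662 on the plus strand. All 7 are protein-coding. Hmgcs1 overlaps the antisense gene Gm48342, which had 32 UMIs in Glut5 KO and 33 UMIs in wildtype cells; whether counting used strand was not given in the sources used here.

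RefSeq promoter windows, 250 bases before to 50 after the start (GRCm38.p6), were at hand for 5 of the 7 members, all but Sqle and Fdps. Windows of an enzyme gene and of the regulator pair are printed because Hmgcs1 and Srebf2 were lower in Glut5 KO macrophages below, whereas Insig1 was not. They lie at chr13:119690101-119690400 (Hmgcs1), chr5:28071162-28071461 (Insig1) and chr15:82147019-82147318 (Srebf2), all on the plus strand. Capitals mark matches, on either strand, to the sterol regulatory element core TCACNCCAC, the NF-Y box CCAAT, the Sp box GGGCGG and the E-box CACGTG.
Hmgcs1: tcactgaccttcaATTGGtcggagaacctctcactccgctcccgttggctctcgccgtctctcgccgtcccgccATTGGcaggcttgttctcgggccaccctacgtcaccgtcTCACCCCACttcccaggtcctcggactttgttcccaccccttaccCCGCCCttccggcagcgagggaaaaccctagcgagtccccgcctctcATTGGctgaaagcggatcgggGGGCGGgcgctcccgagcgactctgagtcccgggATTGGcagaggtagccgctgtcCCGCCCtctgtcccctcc
Insig1: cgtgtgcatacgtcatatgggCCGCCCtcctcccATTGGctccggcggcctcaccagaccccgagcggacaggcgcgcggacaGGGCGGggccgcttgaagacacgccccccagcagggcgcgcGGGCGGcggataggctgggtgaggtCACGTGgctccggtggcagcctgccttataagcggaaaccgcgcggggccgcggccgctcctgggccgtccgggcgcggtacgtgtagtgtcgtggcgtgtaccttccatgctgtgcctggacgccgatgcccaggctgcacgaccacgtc
Srebf2: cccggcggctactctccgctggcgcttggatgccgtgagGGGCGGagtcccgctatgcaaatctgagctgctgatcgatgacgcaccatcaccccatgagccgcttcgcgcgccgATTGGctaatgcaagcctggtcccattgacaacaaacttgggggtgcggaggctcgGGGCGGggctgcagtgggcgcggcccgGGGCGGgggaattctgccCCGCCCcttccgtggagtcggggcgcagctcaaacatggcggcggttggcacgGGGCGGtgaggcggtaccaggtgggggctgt
The Hmgcs1 window held the sterol regulatory element core, as TCACCCCAC beginning 137 bases before the start, and so did 408 of 32851 RefSeq windows (1.24%). It was the 1 match among the 5 members. All 5 held CCAAT, as did 37.4% of windows, and all 5 held GGGCGG, as did 35.7%. Insig1 alone of the 5 held CACGTG, beginning 101 bases before the start, which 7.15% of windows held. These are letters in a window, and binding was not measured.

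The genes were most abundant in pDC and in the cells without CD45, and least abundant in microglia and NK cells, in both genotypes. Over the 9 classes the mean rank of the 7 genes was 1.71 for Glut5 KO and 1.57 for wildtype pDC, and 8.71 for Glut5 KO and 8.57 for wildtype microglia, where rank 1 is the highest level. The 7 genes summed to 429 CPM in Glut5 KO and 492 CPM in wildtype pDC. In microglia the sum was 79.2 CPM in Glut5 KO and 97.0 CPM in wildtype cells. Monocyte/macrophage cells, the largest class with 5034 Glut5 KO and 5216 wildtype cells, stood between at 150 CPM and 183 CPM.

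Among the enzymes, Fdps had 144 CPM in Glut5 KO pDC and 165 CPM in wildtype pDC, against 19.6 CPM in Glut5 KO and 30.8 CPM in wildtype microglia. Cells without CD45 held 140 CPM of Fdps in Glut5 KO and 199 CPM in wildtype. Idi1 had another order: its highest class was the migratory dendritic cells, with 50.3 CPM in Glut5 KO and 72.6 CPM in wildtype cells, next to 45.2 CPM and 50.4 CPM in pDC. The intervals of Idi1 in these neighbouring classes overlapped in both genotypes. Sqle was near its lowest in microglia, at 12 UMIs (1.56 CPM) in Glut5 KO and 19 UMIs (2.05 CPM) in wildtype cells. Hmgcs1 was highest in cells without CD45, at 77.5 CPM in Glut5 KO and 67.5 CPM in wildtype cells, against 14.2 CPM in Glut5 KO and 18.1 CPM in wildtype monocyte/macrophage cells. Of the regulators, Srebf2 was highest in pDC at 79.5 CPM in Glut5 KO and 78.1 CPM in wildtype, and second in cDC1 at 72.8 CPM and 63.6 CPM. The highest class of Insig1 stood 3.65-fold above its lowest in the Glut5 KO library and 6.05-fold in the wildtype library.

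**Figure D1:**
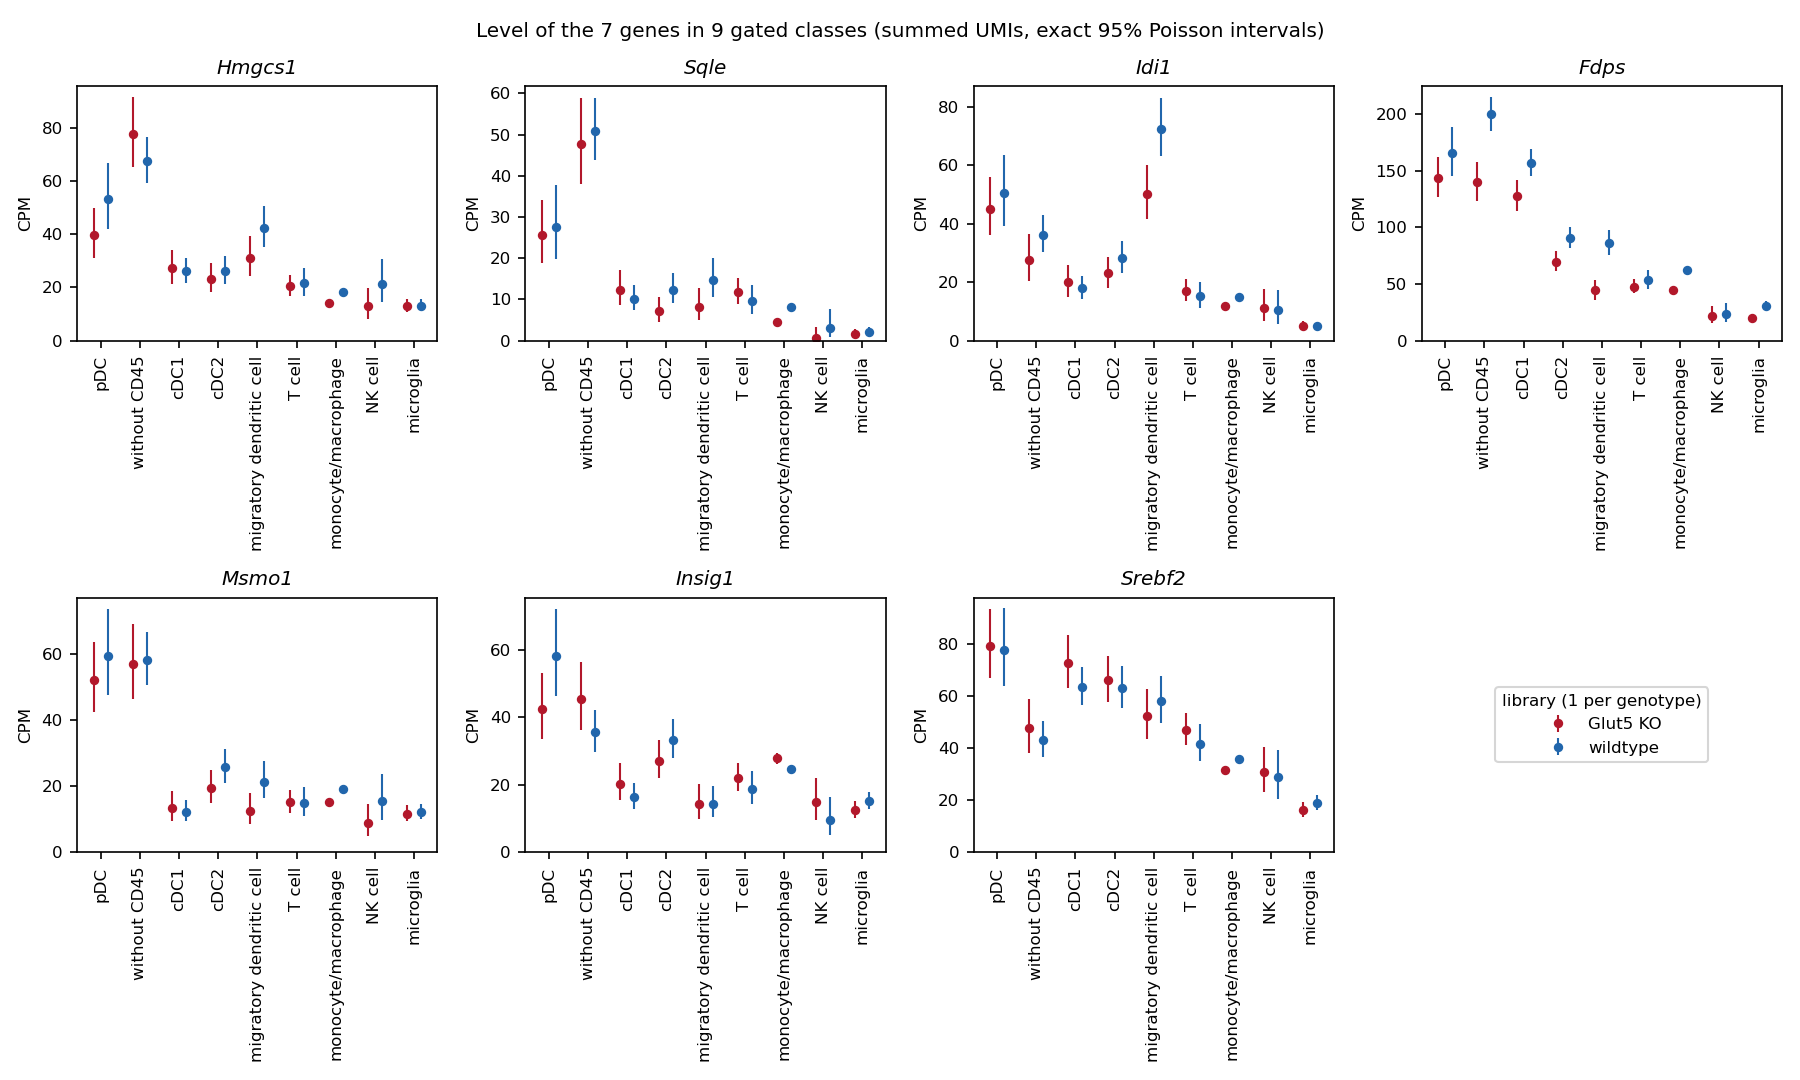
Level of each of the 7 genes in CPM in the 9 classes, Glut5 KO and wildtype side by side, with exact 95% Poisson intervals for counting error. Microglia sit near the bottom and pDC near the top for most genes, and Idi1 peaks in migratory dendritic cells at 50.3 CPM (Glut5 KO) and 72.6 CPM (wildtype).

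In monocyte/macrophage cells, which held the most UMIs and so the narrowest intervals, the 5 enzymes and Srebf2 were lower in the Glut5 KO library and Insig1 was higher. Fdps stood at 44.4 CPM in Glut5 KO and 62.1 CPM in wildtype cells, a log2 ratio (Glut5 KO over wildtype) of -0.48 with an interval of -0.57 to -0.40. Sqle had the lowest ratio, with 193 UMIs (4.57 CPM) in Glut5 KO and 441 UMIs (8.12 CPM) in wildtype cells, a log2 ratio of -0.83 (-1.08 to -0.58). The remaining enzymes lay close together. Hmgcs1 had 14.2 CPM in Glut5 KO and 18.1 CPM in wildtype cells (log2 ratio -0.35), Idi1 had 11.9 CPM and 14.9 CPM (-0.33), and Msmo1 had 15.2 CPM and 19.1 CPM (-0.33). Srebf2 had 31.5 CPM in Glut5 KO and 35.9 CPM in wildtype cells (-0.19, interval -0.29 to -0.09). Insig1, the restraint on SREBP2, went the other way at 27.8 CPM in Glut5 KO and 24.6 CPM in wildtype cells (0.18, interval 0.07 to 0.29). Sqle was the 1 member at least 1.5-fold lower, a size that 7.10% of 14148 genes also reached, and the members' median log2 ratio was -0.33 beside -0.06 over all genes.

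**Figure D2:**
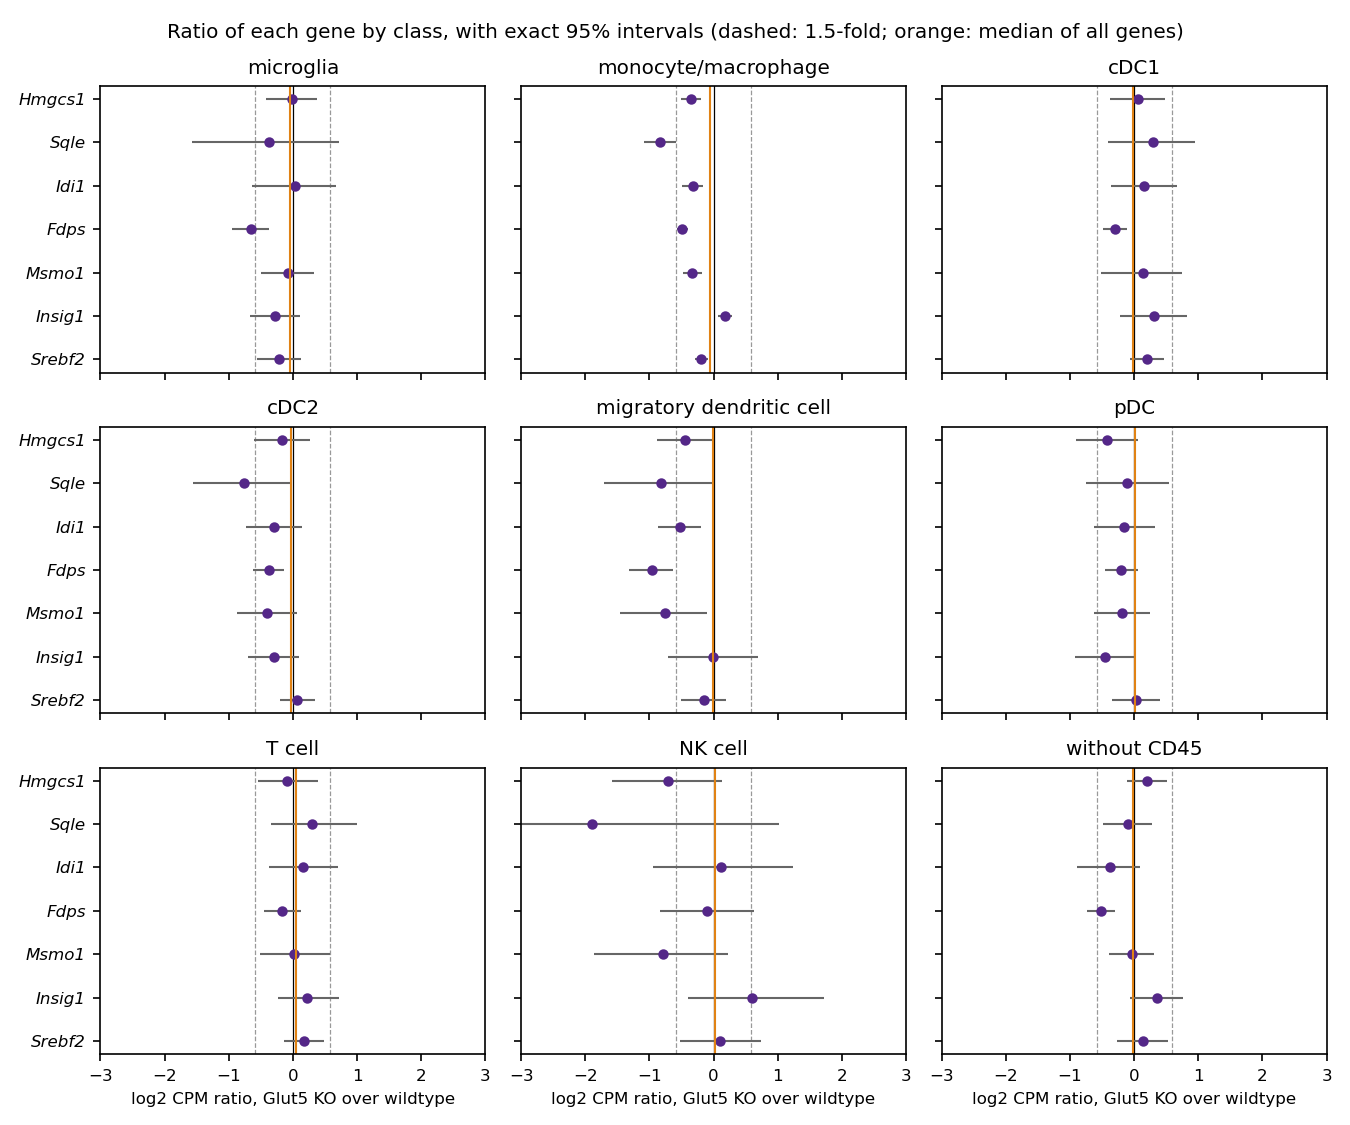
Log2 ratio of each gene, Glut5 KO over wildtype, in the 9 classes, with exact 95% intervals for counting error and dashed lines at 1.5-fold. In monocyte/macrophage cells 6 of 7 points lie below 0 with intervals clear of it, and Insig1 lies above; the interval of Sqle in NK cells, which rests on 1 Glut5 KO and 4 wildtype UMIs, runs off the axis.

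Monocyte/macrophage cells differed between the libraries in make-up, so the genes were also read within sub-gates. Cells with monocyte markers (such as Ly6c2 and Chil3) and no macrophage call were 48.5% of the class in the Glut5 KO library and 35.2% in the wildtype library. Cells with macrophage markers (such as Gpnmb and Ms4a7) and no monocyte call were 22.9% in Glut5 KO and 38.7% in wildtype. The markers themselves differed between the libraries over the class, with Gpnmb at 399 CPM in Glut5 KO and 57.5 CPM in wildtype, Mrc1 at 30.2 CPM and 79.6 CPM, Ly6c2 at 1287 CPM and 683 CPM, and Chil3 at 31.7 CPM and 76.6 CPM. The same sub-gate may thus not hold like cells in both libraries, which was not tested. Within the macrophage sub-gate the median log2 ratio of the members was -0.63, and 4 of 7 were at least 1.5-fold lower, as were 6.35% of all genes there. Those 4 were Sqle at 3.28 CPM in Glut5 KO and 7.85 CPM in wildtype (-1.25), Fdps at 36.5 CPM and 58.7 CPM (-0.69), Idi1 at 7.57 CPM and 12.2 CPM (-0.69), and Srebf2 at 21.1 CPM and 32.8 CPM (-0.63). Within the monocyte sub-gate the median was -0.48 and 1 of 7 was at least 1.5-fold lower, as were 3.86% of all genes. That gene was Msmo1, at 14.2 CPM in Glut5 KO and 23.9 CPM in wildtype cells (-0.74), which in the macrophage sub-gate had 15.2 CPM and 17.0 CPM. Cells that carried both sets of markers differed least, with a median of -0.16 and 1 of 7 at least 1.5-fold lower, beside 6.17% of all genes. With both sexes pooled, Fdps was lower in Glut5 KO in each of the 3 sub-gates, at -0.50 in monocyte cells, -0.32 in cells with both sets and -0.69 in macrophage cells, with all 3 intervals below 0. Insig1, which was higher in Glut5 KO over the whole class, was not clearly so within the sub-gates. It stood at 0.01 in monocyte cells, 0.10 in cells with both sets and -0.04 in macrophage cells, and all 3 intervals held 0.

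The difference was larger in male than in female monocyte/macrophage cells for most members. Cells without a call of sex were left out of this split. Called cells were mostly deeper: in the Glut5 KO monocyte sub-gate the median was 7890 UMIs in female and 6778 UMIs in male cells, against 5884 UMIs in all. Female wildtype cells with both sets of markers went the other way, at 8771 UMIs against 9208 UMIs in all. There were 1161 male cells in the Glut5 KO library and 1884 in the wildtype library, and in these 5 of 7 members were at least 1.5-fold lower in Glut5 KO, as were 9.66% of all genes. Their median log2 ratio was -0.66, and the 7 genes summed to 111 CPM in Glut5 KO and 177 CPM in wildtype male cells. Sqle had 27 UMIs (2.35 CPM) in Glut5 KO and 188 UMIs (8.14 CPM) in wildtype male cells, a log2 ratio of -1.77 (-2.43 to -1.21). Fdps had 29.2 CPM in Glut5 KO and 63.3 CPM in wildtype male cells (-1.11, interval -1.29 to -0.94). Idi1 (-0.88), Hmgcs1 (-0.66) and Srebf2 (-0.61) made up the 5. Msmo1 stood at -0.37, and Insig1 at 25.3 CPM in Glut5 KO and 22.2 CPM in wildtype male cells.

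In the 1462 Glut5 KO and 1236 wildtype female cells the median was -0.25, and 1 of 7 was at least 1.5-fold lower, beside 8.62% of all genes. That gene was Sqle, at 5.92 CPM in Glut5 KO and 10.1 CPM in wildtype female cells (-0.76, interval -1.15 to -0.39). Fdps had 56.2 CPM in Glut5 KO and 66.7 CPM in wildtype female cells (-0.25), Idi1 had 15.5 CPM and 15.8 CPM (-0.02), and Srebf2 had 37.2 CPM and 36.9 CPM (0.01). Hmgcs1 (-0.36, interval -0.60 to -0.12) and Msmo1 (-0.35, interval -0.59 to -0.12) were lower, and Insig1 was higher (0.28, interval 0.08 to 0.48). Of the 7 intervals 4 lay below 0 and 1 above 0 in female cells, against 6 below and 0 above in male cells. The 2 sexes stood further apart within the Glut5 KO library than within the wildtype library for most members. In Glut5 KO cells, 5 of 7 members were at least 1.5-fold lower in male than in female cells, as were 10.7% of all genes, and all 7 intervals lay below 0. In wildtype cells 0 of 7 were at least 1.5-fold lower in male cells, as were 9.30% of all genes, and 2 of 7 intervals lay below 0. The log2 ratio of male over female cells for Fdps was -0.94 in the Glut5 KO library and -0.08 in the wildtype library. Msmo1 differed alike in both, at -0.47 in Glut5 KO and -0.46 in wildtype, and all 7 ratios were below 0 in the wildtype library too, with Hmgcs1 at -0.37. Sex and host animal cannot be told apart, since the labels do not say how many animals gave each library, and the difference between the sexes was not tested.

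**Figure D3:**
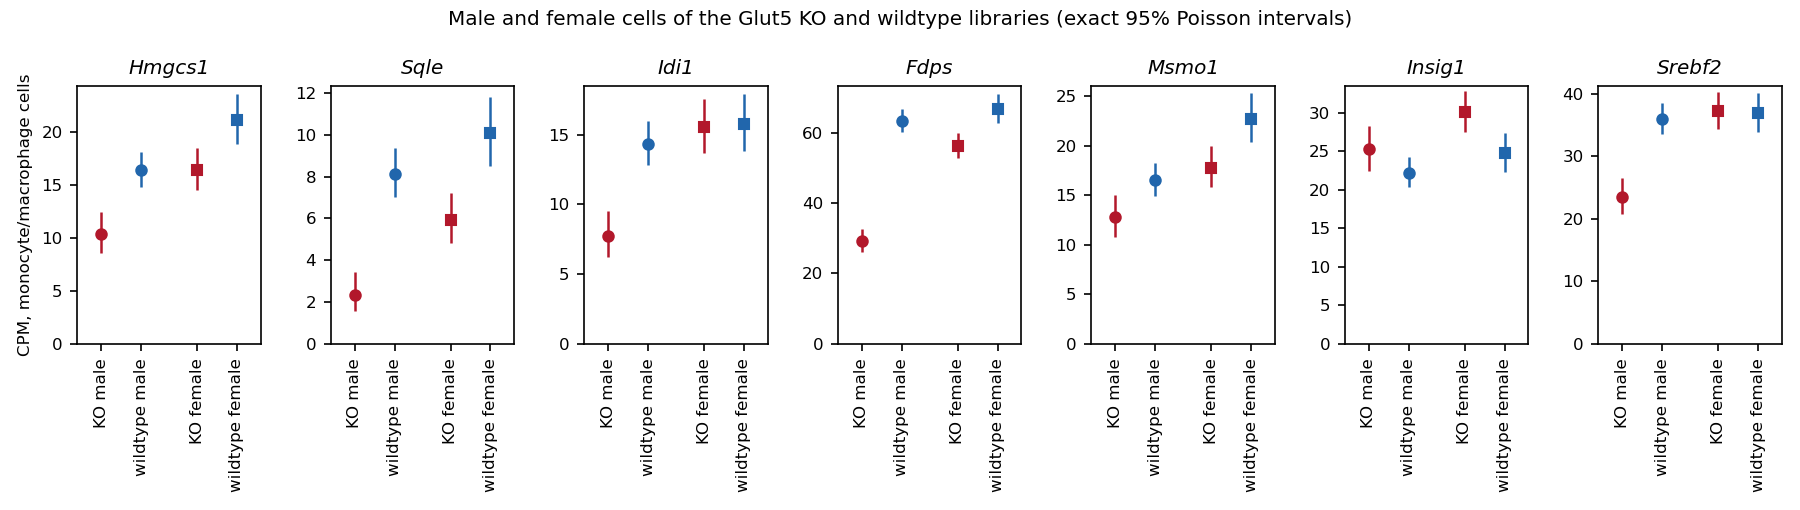
Level of each gene in CPM in male and female monocyte/macrophage cells, Glut5 KO and wildtype, with exact 95% Poisson intervals. Male Glut5 KO cells are the lowest of the 4 groups for Hmgcs1, Sqle, Idi1, Fdps, Msmo1 and Srebf2; Fdps has 29.2 CPM there, against 56.2 CPM in female Glut5 KO and 63.3 CPM in male wildtype cells.

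Sub-gate and sex were then combined. In the monocyte sub-gate the median log2 ratio was -0.91 in male cells, with 5 of 7 at least 1.5-fold lower beside 5.04% of all genes, and -0.51 in female cells, with 3 of 7 beside 6.43%. Fdps in female monocyte cells had 61.2 CPM in Glut5 KO and 98.9 CPM in wildtype (-0.69), and in male monocyte cells 21.6 CPM and 49.9 CPM (-1.21). In the macrophage sub-gate the median was -0.79 in male cells, with 5 of 7 beside 10.3% of all genes, and -0.25 in female cells, with 1 of 7 beside 6.69%. In cells with both sets of markers the median was -0.66 in male cells, with 4 of 7 beside 11.6% of all genes, and -0.04 in female cells, with 1 of 7 beside 8.89%. Fdps in female cells of that kind was not lower, at 70.1 CPM in Glut5 KO and 67.2 CPM in wildtype (0.06, interval -0.21 to 0.34), against 29.9 CPM and 66.2 CPM in male cells (-1.14). The 1 gene in female macrophages was Sqle, at 19 UMIs (3.14 CPM) in Glut5 KO and 64 UMIs (7.74 CPM) in wildtype cells. In female cells the ratio of Fdps was thus further from 0 in monocyte cells (-0.69) than in the whole class (-0.25), in which monocyte cells were 43.1% of female Glut5 KO and 26.9% of female wildtype cells.

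Division differed between the libraries as well. Dividing cells, with at least 3 of 10 division markers, were 10.5% of monocyte/macrophage cells in the Glut5 KO library and 20.2% in the wildtype library, and the 10 markers had a median log2 ratio of -0.72, at -1.33 in male and -0.29 in female cells. In the monocyte sub-gate division went the other way, with 4.79% of cells dividing in Glut5 KO and 2.94% in wildtype, beside the members' median of -0.48. Within each library Sqle was higher in dividing than in non-dividing monocyte/macrophage cells, at 8.47 CPM against 3.45 CPM in Glut5 KO (log2 ratio 1.30, interval 0.82 to 1.77) and 12.3 CPM against 5.29 CPM in wildtype (1.22, interval 0.90 to 1.55). Sqle was the 1 member at least 1.5-fold higher in dividing cells, a size that 25.5% of genes reached in Glut5 KO and 26.6% in wildtype cells. Fdps was higher in dividing cells by a log2 ratio of 0.57 in Glut5 KO and 0.58 in wildtype, and Insig1 stood at -0.21 in Glut5 KO (interval -0.44 to 0.01) and -0.33 in wildtype (-0.52 to -0.15). Among non-dividing cells (0 of the 10 markers) the log2 ratio between the genotypes was -0.61 for Sqle, -0.38 for Fdps and -0.21 for Srebf2, and among dividing cells it was -0.54 for Sqle, -0.38 for Fdps and -0.13 for Srebf2, whose interval held 0. In non-dividing male cells the members' median was -0.71, and in non-dividing female cells -0.33. In the male ones Sqle had 6 UMIs (0.875 CPM) in Glut5 KO and 44 UMIs (5.18 CPM) in wildtype. Beyond these splits, the part of division in the genotype difference was not tested.

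**Figure D4:**
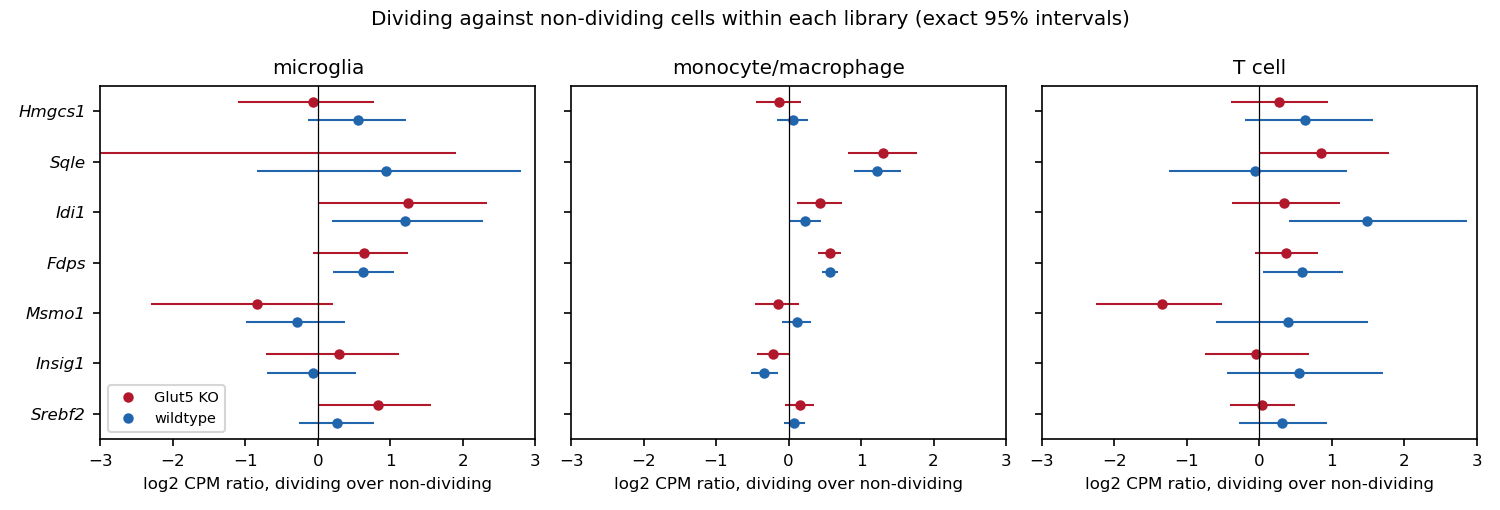
Log2 ratio of dividing over non-dividing cells for each gene within the Glut5 KO and the wildtype library, with exact 95% intervals for counting error. In monocyte/macrophage cells Sqle lies at 1.30 (Glut5 KO) and 1.22 (wildtype), the highest of the 7 in both; a gene with 0 UMIs in 1 of the states has no point.

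Microglia, in which Slc2a5 was found in wildtype cells, showed a difference in Fdps. It had 151 UMIs (19.6 CPM) in the 835 Glut5 KO microglia and 286 UMIs (30.8 CPM) in the 933 wildtype microglia, a log2 ratio of -0.65 (-0.95 to -0.37). It was the 1 member at least 1.5-fold lower, beside 6.93% of all genes. Hmgcs1 (-0.02), Idi1 (0.03) and Msmo1 (-0.08) were close to 0, and Insig1 (-0.28) and Srebf2 (-0.22) had intervals that held 0. In male microglia 3 of 7 members, Sqle, Fdps and Srebf2, were at least 1.5-fold lower, beside 11.0% of genes. Sqle there had 2 UMIs in Glut5 KO and 5 UMIs in wildtype, under the 20 UMIs that a gene needed to enter that share. In female microglia 1 of 7, Insig1 (-0.64), was at least 1.5-fold lower, beside 9.14%, and Fdps stood at -0.43. Dividing microglia were 9.70% in Glut5 KO and 19.9% in wildtype, and Fdps was higher in dividing microglia by 0.63 in both libraries. The interval held 0 in Glut5 KO (-0.06 to 1.25, on 28 UMIs in dividing cells) and lay above 0 in wildtype (0.20 to 1.05). Between the genotypes Fdps stood at -0.41 in non-dividing (-0.86 to 0.02) and -0.41 in dividing microglia (-1.09 to 0.20). In non-dividing microglia Srebf2 stood at -0.68 (-1.22 to -0.17), whereas Hmgcs1 (0.45) and Idi1 (0.36) lay above 0 with intervals that held 0. The part of division was not tested.

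Migratory dendritic cells, the highest class for Idi1, had a lower level of every enzyme in the Glut5 KO library (319 Glut5 KO and 371 wildtype cells). Fdps had 44.2 CPM in Glut5 KO and 86.3 CPM in wildtype cells (-0.96, interval -1.31 to -0.63). Sqle had 19 UMIs (8.23 CPM) in Glut5 KO and 42 UMIs (14.7 CPM) in wildtype cells (-0.82, interval -1.70 to -0.03), a ratio that turned to 1.12 in thinned and 0.26 in female cells. Msmo1 had 12.6 CPM and 21.4 CPM (-0.75). Fdps, Sqle and Msmo1 were the 3 of 7 at least 1.5-fold lower, beside 7.08% of all genes. Idi1 (-0.53) and Hmgcs1 (-0.44) also had intervals below 0, whereas Insig1 had 14.3 CPM in Glut5 KO and 14.4 CPM in wildtype cells. The members' median was -0.53, at -0.62 in male and -0.69 in female cells. Dividing cells were 5.02% in Glut5 KO and 8.36% in wildtype.

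In cDC2 the intervals of Sqle (7.17 CPM in Glut5 KO, 12.3 CPM in wildtype, -0.77) and Fdps (69.6 CPM and 90.6 CPM, -0.38) lay below 0. Sqle was the 1 of 7 at least 1.5-fold lower, beside 6.07% of all genes. Here too the male cells were lower. Of 7 members, 6 were at least 1.5-fold lower in 82 Glut5 KO and 147 wildtype male cells, beside 12.7% of all genes. In 108 Glut5 KO and 69 wildtype female cells it was 1 of 7, beside 9.11%. Intervals lay below 0 for 2 of 7 members in male cDC2, Idi1 and Fdps, and for 0 of 7 in female cDC2. Sqle in male cDC2 had 4 UMIs in Glut5 KO and 20 UMIs in wildtype (interval -3.24 to 0.35). Fdps in male cDC2 had 43.1 CPM in Glut5 KO and 88.7 CPM in wildtype (-1.03), and in female cDC2 102 CPM and 97.8 CPM (0.05). The division markers had a median of -1.77 in male and 1.10 in female cDC2. The members' median was -0.74 in male and -0.03 in female cDC2, lower beside lower division markers in male cells and near 0 beside higher ones in female cells. The part of division was not tested. In cDC1, 0 of 7 were past 1.5-fold lower, beside 6.69% of genes, and Fdps alone had an interval below 0 (127 CPM in Glut5 KO, 157 CPM in wildtype, -0.30). Fdps was likewise the 1 member with an interval below 0 in cells without CD45 (-0.51, interval -0.73 to -0.31), with 0 of 7 at least 1.5-fold lower beside 5.89% of genes. Dividing cells were 24.1% of that class in Glut5 KO and 41.7% in wildtype. In the wildtype library Fdps had 251 CPM in dividing against 123 CPM in non-dividing cells of the class (1.02). Among its non-dividing cells (75 Glut5 KO and 60 wildtype) Fdps had 56.4 CPM in Glut5 KO and 123 CPM in wildtype (-1.11, interval -1.84 to -0.45). Here too the part of division was not tested.

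In T cells, NK cells and pDC the interval of every member held 0. The members' median in T cells (647 Glut5 KO and 348 wildtype cells) was 0.15, with 0 of 7 at least 1.5-fold lower beside 6.15% of genes. Fdps there had 47.6 CPM in Glut5 KO and 53.4 CPM in wildtype cells, with an interval of -0.46 to 0.13. That interval overlapped the one of Fdps in monocyte/macrophage cells (-0.57 to -0.40). In pDC the median was -0.19 with 6 of 7 ratios below 0, and 0 of 7 were at least 1.5-fold lower, beside 8.75% of genes. Among non-dividing pDC (197 Glut5 KO and 94 wildtype cells), the intervals of Hmgcs1 (-0.67, -1.23 to -0.11) and Fdps (-0.41, -0.73 to -0.09) lay below 0. Those of the other members held 0. In NK cells 3 of 7 were at least 1.5-fold lower, beside 8.12% of genes, and 1 was higher, beside 8.20%, each on at most 29 UMIs in a library. Sqle, 1 of the 3, had 1 UMI in Glut5 KO and 4 UMIs in wildtype NK cells, under the 20 UMIs that a gene needed to enter those shares. Past 1.5-fold either way, the call by which the classes are compared across settings in the closing section, were 11.7% of genes in microglia, 15.1% in monocyte/macrophage cells, 11.5% in cDC1, 1198 of 9968 genes in cDC2, 13.9% in migratory dendritic cells, 17.2% in pDC, 14.9% in T cells, 16.3% in NK cells and 14.2% in cells without CD45.

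The share of cells with an Fdps UMI was lower in Glut5 KO than in wildtype monocyte/macrophage cells. With each cell thinned to 1000 UMIs, 3.37% of Glut5 KO cells (2.87% to 3.92%) and 5.33% of wildtype cells (4.74% to 5.98%) held an Fdps UMI, leaving out 309 Glut5 KO and 40 wildtype cells under that depth. Unthinned shares were 22.8% in Glut5 KO and 34.1% in wildtype, at median depths of 7391 and 8941 UMIs. In microglia, where the CPM of Fdps was lower, shares at 1000 UMIs were alike at 2.97% in Glut5 KO (1.91% to 4.39%) and 3.03% in wildtype (2.02% to 4.35%). With cells thinned to 2000 UMIs they were 3.29% in Glut5 KO (2.14% to 4.81%) and 5.68% in wildtype (4.24% to 7.41%), the order of the CPM. In T cells the shares at 1000 UMIs were 5.50% in Glut5 KO and 4.07% in wildtype, the reverse of the CPM. At 2000 UMIs the T cell shares were 6.83% in Glut5 KO and 7.79% in wildtype. The T cell intervals overlapped at both depths. No class is known to lack Fdps. The share at 1000 UMIs in NK cells, the class with one of the lowest levels, was 0.647% in Glut5 KO and 1.45% in wildtype. For Insig1 in monocyte/macrophage cells the shares at 1000 UMIs were 2.92% in Glut5 KO and 2.61% in wildtype, with intervals that overlapped.

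The rest of the pathway was read in lists of genes that hold none of the 7, each gene with at least 20 UMIs in the class. In monocyte/macrophage cells the other 16 cholesterol synthesis genes had a median log2 ratio of -0.30, with 15 of 16 below 0. Lbr, a sterol reductase that also anchors chromatin, was the 1 gene above 0 (0.19). Genes of SREBP control had a median of -0.11 and genes of uptake and lysosomal release -0.05, with 0 past 1.5-fold in either list. Among the uptake genes Stard4, a sterol carrier, stood at -0.41 and Npc2, which moves sterol out of lysosomes, at 0.24. Fatty acid synthesis genes had a median of -0.23, with the desaturase Fads2 at 43 UMIs in Glut5 KO and 156 UMIs in wildtype cells (-1.49) and the synthase Fasn at -0.48. The isoprenoid branch, which uses the product of Fdps, had a median of 0.00.

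LXR and efflux genes stood on the other side, with a median of 0.18 in monocyte/macrophage cells, though 0 of 8 were past 1.5-fold. Apoc1 (-0.02) and Apoe (-0.01) were the 2 of 8 below 0. Nr1h3, which encodes LXRα, had 52.1 CPM in Glut5 KO and 38.5 CPM in wildtype cells (0.44), and the exporter Abcg1 had 62.5 CPM and 49.8 CPM (0.33). In male cells 5 of 8 of these genes were at least 1.5-fold higher in Glut5 KO, beside 8.81% of all genes, with a median of 0.60. Nr1h3 in male cells had 53.2 CPM in Glut5 KO and 23.5 CPM in wildtype (1.18, interval 1.01 to 1.35), and Abca1 had 128 CPM and 84.1 CPM (0.61). Apoc1 (0.75), Ch25h (0.70) and Abcg1 (0.60) were the others. In female cells the median was -0.08 with 5 of 8 below 0, and Nr1h3 had 50.6 CPM in Glut5 KO and 50.8 CPM in wildtype. Apoc1 (-1.45), Apoe (-0.44, interval -0.45 to -0.43) and Abca1 (-0.33, interval -0.46 to -0.20) were lower there. The other 16 cholesterol synthesis genes were all below 0 in male cells, with 5 at least 1.5-fold lower beside 9.66% of all genes, and a median of -0.39 beside -0.06 over all genes. In female cells 11 of 16 were below 0, with 0 at least 1.5-fold lower beside 8.62% of all genes, and a median of -0.16 beside -0.09. Cyp51, the demethylase that follows squalene epoxidation and cyclisation, had 13.8 CPM in Glut5 KO and 23.0 CPM in wildtype male cells (-0.74), and 24.6 CPM and 26.0 CPM in female cells.

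In microglia the other cholesterol synthesis genes had a median of -0.10, with Sc5d highest (0.58) and Dhcr7 lowest (-0.46). LXR and efflux genes had a median of 0.27, led by Apoe at 18609 CPM in Glut5 KO and 12513 CPM in wildtype microglia (0.57) and Abca1 at 202 CPM and 140 CPM (0.53). Of these 8 genes 0 were past 1.5-fold, and Ch25h (-0.31) was the 1 below 0. The scavenger receptor Cd36 stood at -0.40. In T cells the other cholesterol synthesis genes had a median of -0.07.

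**Figure D5:**
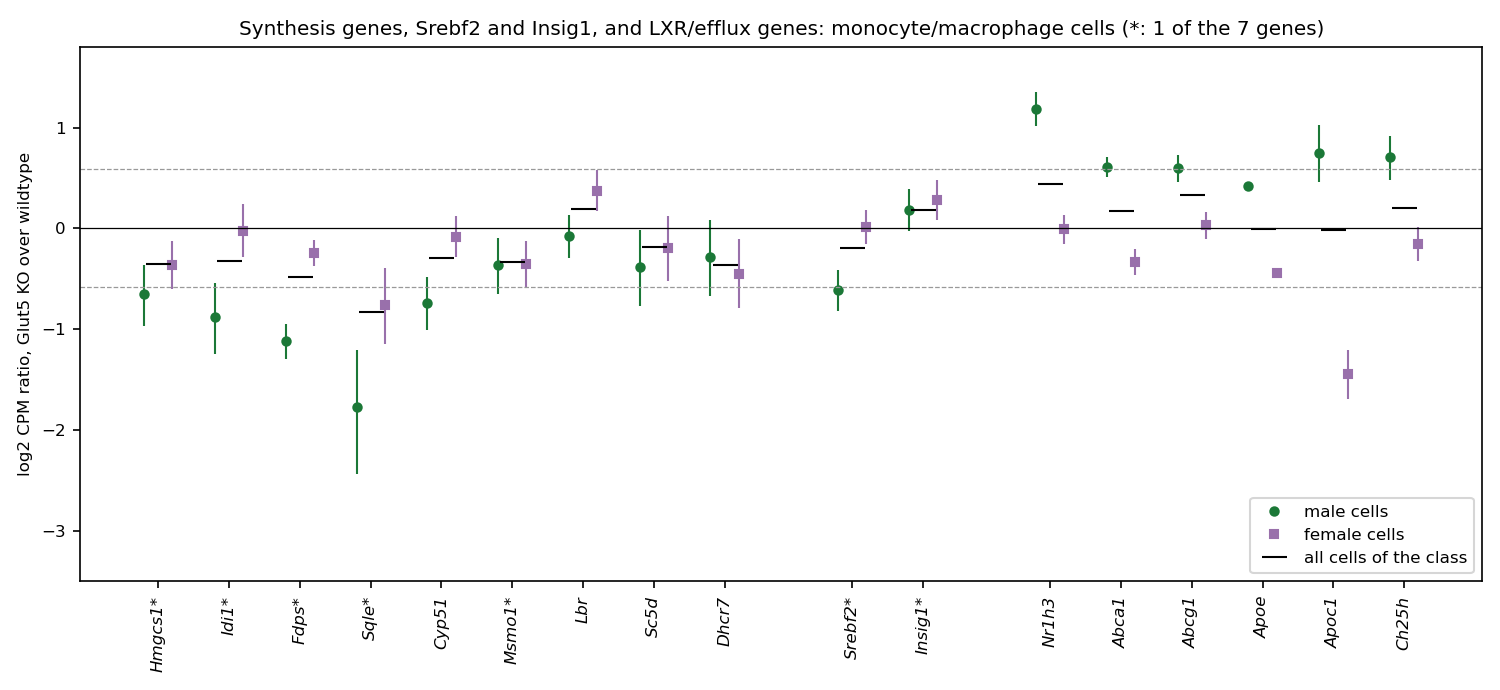
Log2 ratio, Glut5 KO over wildtype, of the synthesis genes, regulators and LXR or efflux genes named in the text, in male and female monocyte/macrophage cells, with exact 95% intervals for counting error, dashed lines at 1.5-fold and a dash for all cells of the class. Nr1h3 stands at 1.18 in male and -0.01 in female cells, and Cyp51 at -0.74 in male and -0.08 in female cells.

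The members were also compared with each other over the 6 classes that had at least 200 cells in each library, which gave 12 points from 2 libraries. Hmgcs1 and Idi1 followed each other most closely (Pearson r = 0.93 on log2 of CPM plus 1), then Sqle and Fdps (0.90). Insig1 had r = 0.03 to Hmgcs1, 0.20 to Idi1, 0.49 to Sqle, 0.57 to Msmo1 and 0.69 to Fdps. Of 7934 genes with at least 20 CPM in 1 of the 12 sums, those most like the members' mean were Htr7 (r = 0.95), H2afz, Eva1b, Psmd8, Lrrk2, Ece1 and Cyp51 (0.94 each) and Lsr (0.92). Cyp51 was the first gene of the pathway, at rank 7. These correlations describe classes that share libraries and differ in depth, and carry no test.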

How the data were processed

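The deposited matrices held UMI counts per gene and barcode, mapped to mm10. The submitters' processing notes name Cell Ranger 3.1.0, whereas the authors' matrix headers name 7.0.1. The 7 genes, pathway lists, markers and gates were chosen with earlier results of these data known, and the gates, sub-gates, 100-cell limit and splits by sex were settled after the data were examined. A barcode joined a class with at least 2 of its markers (3 for migratory dendritic cells) and at least 3 marker UMIs per 10000. Barcodes that met the gates of several classes, 7.43% in Glut5 KO and 5.89% in wildtype, were set aside as mixed, and 2682 Glut5 KO and 2578 wildtype barcodes met no gate. No doublet caller was run in the main reading. An alternative left out the 8% of barcodes with the highest Scrublet doublet scores in each library. UMIs were summed per class and library and given as CPM. Log2 ratios had 0.5 added to each count, with conditional binomial intervals, and levels had Poisson and shares Clopper-Pearson intervals. A floor of 20 UMIs over both libraries set which genes entered the background. Genes other than the members were named by rank within their list (the 2 highest and 2 lowest ratios with at least 100 UMIs in microglia or monocyte/macrophage cells); further LXR, efflux and synthesis genes in the split by sex were named after their values were seen. Some genes of the lists are not reported here, though the lists' medians include them. The steps were tested on simulated data. Python 3.11.15, numpy 2.4.6, scipy 1.17.1, pandas 2.3.3, scanpy 1.11.5 and matplotlib 3.10.9 were used.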

Additional observations from a re-analysis of the deposited data

How the results depend on the processing

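No paired analysis was possible because each genotype has 1 library. The median log2 ratio of the 7 members in monocyte/macrophage cells stayed below 0 in the 14 alternatives run (-0.71 to -0.16), in microglia in all 9 (-0.32 to -0.02), in migratory dendritic cells in all 9 (-0.72 to -0.44) and in cDC2 in all 9 (-0.74 to -0.03). In pDC it stayed below 0 in all 7 (-0.37 to -0.18). It changed sign in some alternatives in cDC1, T cells, NK cells and cells without CD45. Medians outside the counting interval of the member nearest the reported median were those of male (-0.66), monocyte (-0.48), both-marker (-0.16), macrophage (-0.63) and non-dividing male (-0.71) monocyte/macrophage cells, male cDC2 (-0.74) and thinned NK cells (0.72). Fdps in monocyte/macrophage cells lay between -1.11 and -0.25 and stayed below 0 in 15 of 15 alternatives, and Sqle between -2.47 and -0.32 in 15 of 15. Insig1 there lay between -0.04 and 0.32 and kept its sign in 14 of 15. Finer strata, of sub-gate by sex and division, reached outside these ranges: the median was -0.91 in male monocyte cells and 0.01 in non-dividing female macrophages, Fdps was -1.21 in male monocyte and 0.06 in female both-marker cells, and Sqle was 0.14 in non-dividing female macrophages (5 UMIs in each library) and -2.88 in non-dividing male ones (1 Glut5 KO and 17 wildtype UMIs). The median also ran to -0.78 in male NK cells and 0.66 in thinned T cells.

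Counts of members past 1.5-fold either way moved as follows. In monocyte/macrophage cells (1) there were 5 in male cells, 4 in the macrophage sub-gate and 4 in non-dividing male cells. In microglia (1) there were 2 with 1 more gate marker, 0 after thinning and 3 in male cells. In cDC1 (0) there were 3 after thinning and 1 in female cells. In cDC2 (1) there were 0 with 1 more marker, 4 after thinning and 6 in male cells. In migratory dendritic cells (3) there were 5 in female and 5 in male cells. In pDC (0) there were 1 with 1 more marker, 2 without the top Scrublet scores, 1 without dividing cells and 3 after thinning. In T cells (0) there were 2 without dividing cells, 4 after thinning, 3 in female and 1 in male cells. In NK cells (4) there were 2 without the top Scrublet scores. In cells without CD45 (0) there were 2 with 1 more marker, 3 without dividing cells and 4 after thinning. At a limit of 2-fold the count was 0 in microglia, monocyte/macrophage cells, cDC2 and migratory dendritic cells and 1 in NK cells.

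Some ratios past 1.5-fold turned sign. Sqle turned in migratory dendritic cells (1.12 thinned, 0.26 in female cells). The division list turned in monocyte cells (0.98), in migratory dendritic cells without the top Scrublet scores (0.20) and in pDC without dividing cells (0.43). LXR and efflux genes turned in pDC without the top Scrublet scores (0.032), and Insig1 in male NK cells (-0.045). The cause was not tested. Thinning leaves few UMIs of Sqle, and depth limits the scarce genes most. The sub-gates and the splits of non-dividing cells by sex were added after the data were examined.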

Other observations

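The cells without CD45 were nearly all of the female kind among those that could be placed, with 112 female and 4 male cells in the Glut5 KO library and 181 female and 3 male cells in the wildtype library. In regulatory T cells Fdps had 41 UMIs (43.5 CPM) in the Glut5 KO library and 38 UMIs (97.9 CPM) in the wildtype library, a log2 ratio of -1.17 (-1.84 to -0.49), whereas in CD8 T cells it had 49.1 CPM in Glut5 KO and 37.6 CPM in wildtype cells (0.38), with an interval that held 0. These T cell subsets were small and were read after the data were examined.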
